A study of Mus musculus with 2 samples.

Results

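The genes Clec4e, Clec4d, Clec4n, Clec7a, Clec4a2, Clec12a, Clec4a1, Clec4a3 and Mrc1 code for C-type lectin receptors of myeloid cells. They were chosen by name, 9 of the 33696 genes counted, and all 9 had counts in both libraries. To compare lungs with and without GFI1, live lung cells were sorted from adult mice carrying a germline knockout of GFI1 (GFI1 KO) and from wild-type (WT) mice, both on the C57BL6/J background. A germline knockout affects every tissue of the mouse, so changes in the blood-forming cells and in the lung itself are present together. Each genotype is represented here by 1 library of 10x Genomics 3′ single-cell RNA counts, and no treatment is named in the labels. Differences between genotypes, mice and libraries therefore cannot be told apart, and no test or p-value is given. The number of mice pooled in a library is not given in the sources used here. Values are counts of unique molecular identifiers (UMIs), which mark each captured RNA molecule once.

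C-type lectin receptors bind sugars and lipids on microbes and on damaged cells. Some of them, such as Clec4e and Clec4n, pair with the adaptor Fcer1g, and Clec7a carries a signalling motif of its own; these receptors act through the kinase Syk and the adaptor Card9 to switch on inflammatory genes. Others, such as Clec4a2 and Clec12a, carry an inhibitory motif that recruits phosphatases, and Mrc1 takes up mannose-bearing proteins. In the lung they are known from alveolar macrophages, monocytes, neutrophils and dendritic cells. GFI1 is a DNA-binding repressor known for its role in neutrophil formation.

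The promoters of Clec4d and Clec4e are shown because these neighbouring genes on chromosome 6 both had their highest WT level in neutrophil-like cells, the class that was nearly missing in the GFI1 KO library. Each line gives the 250 bases before the start of the gene from RefSeq (build GRCm38.p6, read 5′ to 3′ on the strand of the gene), with the 4-letter core AATC of the GFI1 site, or its reverse complement GATT, in capitals. Clec4d lies on the plus strand (chr6:123261857-123262106) and Clec4e on the minus strand (chr6:123289872-123290121).
Clec4d: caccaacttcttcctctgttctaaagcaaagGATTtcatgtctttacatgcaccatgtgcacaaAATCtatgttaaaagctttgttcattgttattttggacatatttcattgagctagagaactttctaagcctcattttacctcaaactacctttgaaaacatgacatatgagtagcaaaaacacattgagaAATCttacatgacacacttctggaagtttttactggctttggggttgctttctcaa
Clec4e: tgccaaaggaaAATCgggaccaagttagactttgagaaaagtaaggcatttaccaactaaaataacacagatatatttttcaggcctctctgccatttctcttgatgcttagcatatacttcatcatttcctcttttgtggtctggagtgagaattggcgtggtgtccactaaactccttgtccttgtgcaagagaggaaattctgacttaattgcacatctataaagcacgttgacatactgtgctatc
The core stood at 3 places before Clec4d and at 1 place before Clec4e. It is short, and 69.0% of the 32851 promoters in the table held it on either strand. The 8-letter form TAAATCAC, which contains the core, and the PU.1 site GAGGAAGT were searched on both strands. Neither was present in these windows for any of the 8 members that matched by symbol (Clec4n did not match), where 0.514% and 2.44% of all promoters held them. A match of letters is a description and not a bound site. GFI1 binding was not measured in the files used here.

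The library labelled GFI1 KO held 10700 cells and the library labelled WT 19515 cells, with 116825535 and 162599284 gene UMIs. After the study's filters, 10495 and 19342 cells remained, with medians of 11076 and 6217 UMIs per cell. Gfi1 itself, the targeted gene, held 340 and 470 UMIs over all cells, or 3.60 and 3.47 CPM (UMIs per 1000000 UMIs of the cells summed). In NK cell-like cells Gfi1 was at 34.5 and 24.2 CPM, in T cell-like cells at 23.7 and 10.1 CPM, in alveolar macrophage-like cells at 1.46 and 0.178 CPM and in monocyte-like cells at 1.29 CPM (60 UMIs) and 0 UMIs. A loss of Gfi1 RNA was therefore not seen in the library labelled GFI1 KO. Whether the 3′ counts reach the deleted part is not given in the sources used here, so the names below follow the labels and every direction rests on them. Cells were clustered without the receptor genes and their signalling genes, and clusters were named from marker genes. The libraries shared 74 cell barcodes, of which 18 fell in the same class.

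Neutrophil-like cells numbered 9 in the GFI1 KO library (0.0858% of cells) and 1418 in the WT library (7.33%). Monocyte-like cells, in clusters that each matched classical monocyte markers best, numbered 4781 (45.6%) and 422 (2.18%). Some of these clusters also carried markers of granule-gene-expressing myeloid cells. The largest, led by Ly6a2 and Lcn2 (1892 and 146 cells), had 6 of 11. That led by Saa3 and Ms4a4a (978 and 57 cells) had 5 of 11. There were 400 and 353 nonclassical monocyte-like cells, 2366 and 3730 alveolar macrophage-like cells, and 155 and 213 cycling alveolar macrophage-like cells. Dendritic cells gave 55 and 199 cDC1-like cells and 40 and 200 cDC2-like cells. These 6 classes had at least 20 cells in each library and were compared. Interstitial macrophage-like cells (14 and 96), mature dendritic cell-like cells (15 and 130) and plasmacytoid dendritic cell-like cells (13 and 132) are described for the WT library. A cluster of 3 GFI1 KO and 278 WT cells, led by Mmp12, Fbp1 and Ccl24, was left unnamed and outside these classes. It had 6 of the 10 alveolar macrophage markers. The defining tags and genes bore the names out in part. The median CD11b tag was 791 and 491.5 UMIs on monocyte-like cells against 4 and 2 on T cell-like cells, and the median CD11c tag was 1021 and 884 on alveolar macrophage-like cells. The Ly-6G tag, which marks neutrophils, had a median of 243 UMIs on the 1418 neutrophil-like cells labelled WT and of 7 on the 9 labelled GFI1 KO. Those 9 cells also held the granule genes Camp at 2250.5 CPM and Ltf at 1285 CPM, against 23.8 and 21.0 CPM in the WT library.

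The 9 genes were found mainly in myeloid cells. The 10 myeloid classes together held at least 92.25% of the UMIs of every member in the GFI1 KO library and at least 68.4% in the WT library. Lymphoid, endothelial, epithelial and stromal classes held at most 1.5% and 6.64%, and clusters of mixed or unnamed cells held the rest. The level in T cell-like cells was at most 20.3 CPM for each of the 9 genes in both libraries. B cell-like cells held more, reaching 161 and 200 CPM of Mrc1 and 120 and 181 CPM of Clec7a. Most of this lay in 1 cluster of 188 cells (23 in the GFI1 KO library and 165 in the WT library), led by the plasma cell gene Jchain and also by the macrophage genes Retnla and Lyz1, of which 63.8% were called doublets. It held 95.5% and 94.2% of the Mrc1 UMIs of the class. Without it, B cell-like cells were at 8.21 and 14.2 CPM of Mrc1 and at 8.21 and 14.0 CPM of Clec7a. Epithelial-like cells differed between the libraries. The 153 epithelial-like cells labelled GFI1 KO, with a median of 2254 UMIs, held 244 CPM of Clec4d and 190 CPM of Clec4e, against 19.3 and 21.5 CPM in the 147 labelled WT.

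**Figure D1:**
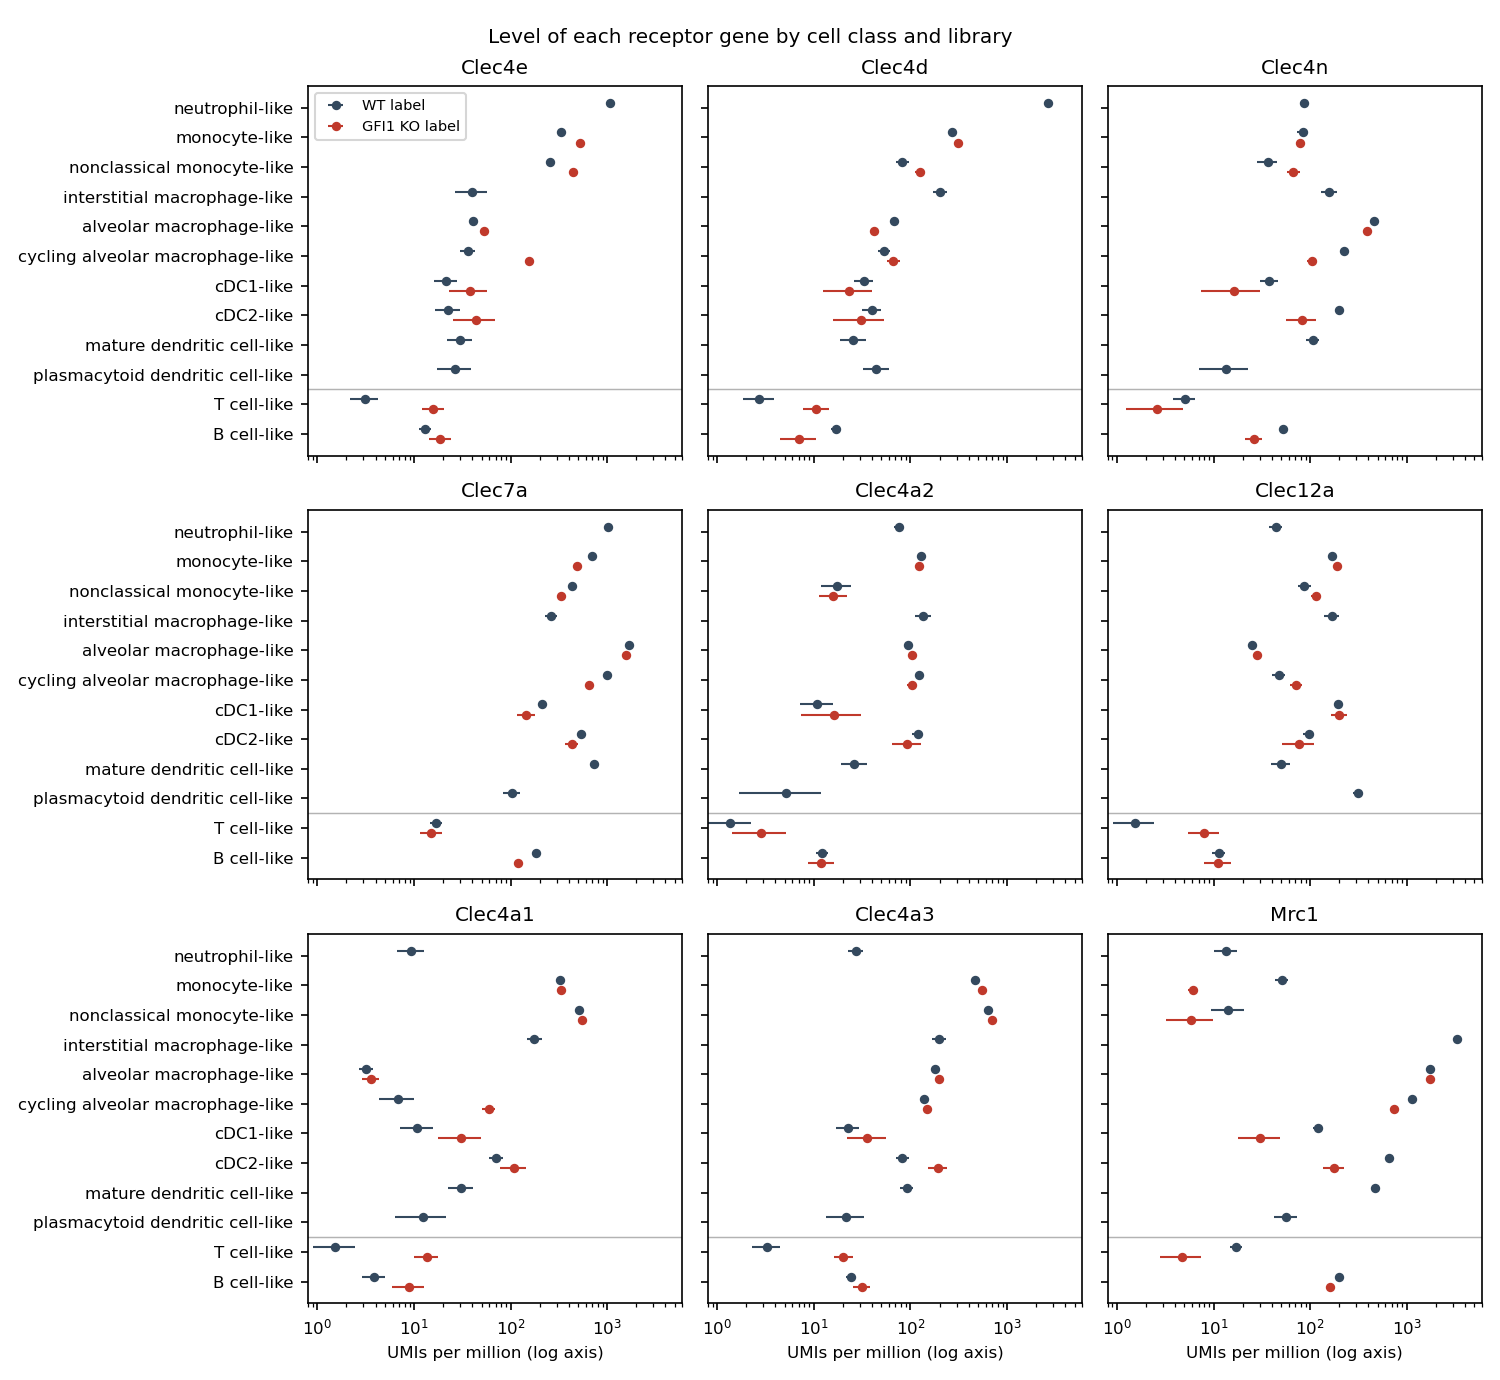
Level of each receptor gene in UMIs per 1000000 (log axis) by cell class, for the library labelled WT (dark) and the library labelled GFI1 KO (red), for classes with at least 20 cells. Bars are exact 95% Poisson intervals for counting error only. T and B cell-like cells, under the grey line, are shown for comparison, and the B cell-like class includes the cluster of 188 cells rich in called doublets. Among the classes shown, Clec4d and Clec4e peaked in WT neutrophil-like cells, Clec4a1 and Clec4a3 in nonclassical monocyte-like cells, and Clec4n and Clec7a in alveolar macrophage-like cells.

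Clec4e (Mincle), an activating receptor for mycobacterial glycolipids and for material from dead cells, was highest in neutrophil-like cells of the library labelled WT, at 1065 CPM (1034 to 1097, exact 95% Poisson interval for counting error only, as for all levels below). Monocyte-like cells followed at 333 CPM (312 to 354) and nonclassical monocyte-like cells at 254 CPM (233 to 278). The macrophage and dendritic cell classes lay between 21.2 and 41.0 CPM, and each overlapped its neighbour in that order. Under the GFI1 KO label the order of the compared classes began with monocyte-like cells at 527 CPM and nonclassical monocyte-like cells at 441 CPM. The 9 neutrophil-like cells labelled GFI1 KO held 859 CPM (697 to 1048).

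Clec4d (MCL), the partner of Clec4e in the same receptor complex, stood out most in neutrophil-like cells. It reached 2625 CPM (2577 to 2675) there in the WT library, against 271 CPM (253 to 291) in monocyte-like cells. When each cell was thinned to 1500 UMIs, 94.8% of 1311 neutrophil-like cells still held a Clec4d UMI, and 107 shallower cells were left out. The 9 neutrophil-like cells labelled GFI1 KO held 44 UMIs, a level of 390 CPM (283 to 523). These cells differed from the WT ones in Ly-6G tag, granule genes and depth. Over 16 class and library points, which share libraries and depth, the Pearson r of log2(CPM + 1) between Clec4d and Clec4e was 0.81.

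Clec4n (Dectin-2), an activating receptor for fungal mannans, was a gene of alveolar macrophage-like cells. These held 458 CPM in the WT library and 383 CPM in the GFI1 KO library. The unnamed WT cluster led by Mmp12 held 479 CPM. Cycling alveolar macrophage-like cells (224 CPM), cDC2-like cells (201 CPM) and interstitial macrophage-like cells (156 CPM) followed in the WT library, and cycling and cDC2-like cells overlapped, as did cDC2-like and interstitial macrophage-like cells. Neutrophil-like cells (86.3 CPM) and monocyte-like cells (83.5 CPM) had overlapping intervals.

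Clec7a (Dectin-1), the β-glucan receptor, was found in every myeloid class. Among the named classes, alveolar macrophage-like cells led with 1674 CPM in the WT library and 1576 CPM in the GFI1 KO library. The unnamed WT cluster led by Mmp12 held more, 2852 CPM. Neutrophil-like cells (1012 CPM) and cycling alveolar macrophage-like cells (985 CPM) overlapped in the WT library, and mature dendritic cell-like cells (728 CPM) overlapped with monocyte-like cells (698 CPM). Of the 10 myeloid classes labelled WT, plasmacytoid dendritic cell-like cells were lowest at 103 CPM. In the 9 neutrophil-like cells labelled GFI1 KO the level was 204 CPM (129 to 306).

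Clec4a2 (DCIR), which carries an inhibitory motif, was spread over interstitial macrophage-like (136 CPM), monocyte-like (129 CPM), cycling alveolar macrophage-like (122.5 CPM) and cDC2-like cells (118 CPM) in the WT library, neighbours that overlapped. It was at 162 CPM in the unnamed WT cluster led by Mmp12. It was low in nonclassical monocyte-like cells, at 17.2 CPM in the WT library and 15.9 CPM in the GFI1 KO library, and with the lectin and signalling genes kept among the variable genes of the clustering the log2 ratio there went from -0.11 to 0.96. Clec4a2 shares exact runs of up to 163 bases with Clec4a4 and 82 bases with Clec4b1 in the annotated transcripts (GENCODE M21), so its counts may be split with these genes. The other pairs that involve a member shared at most 40 bases.

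Clec12a (MICL), an inhibitory receptor for uric acid crystals, had its highest WT level in plasmacytoid dendritic cell-like cells at 312 CPM. cDC1-like (196 CPM), monocyte-like (170 CPM) and interstitial macrophage-like cells (168 CPM) followed and overlapped. Under the GFI1 KO label cDC1-like cells held 201 CPM and monocyte-like cells 191 CPM, which overlapped as well. Of the compared classes, alveolar macrophage-like cells were lowest in both libraries, at 25.2 and 28.0 CPM.

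Clec4a1 and Clec4a3, close relatives of Clec4a2, had their highest levels in the monocyte classes. Clec4a1 was at 509 CPM in nonclassical monocyte-like cells, 326 CPM in monocyte-like cells and 3.22 CPM in alveolar macrophage-like cells in the WT library. The same 3 classes held 550, 336 and 3.59 CPM in the GFI1 KO library. Clec4a3 also led in nonclassical monocyte-like cells (634 and 701 CPM) and monocyte-like cells (470 and 553 CPM), but alveolar macrophage-like cells still held 180 and 200 CPM. In the unnamed WT cluster led by Mmp12, Clec4a3 was at 414 CPM and Clec4a1 at 27.3 CPM. Neutrophil-like cells labelled WT held little of either gene, 9.30 CPM of Clec4a1 and 27.2 CPM of Clec4a3.

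Mrc1 (CD206), the mannose receptor, was the macrophage gene of the group. It reached 3312 CPM in interstitial macrophage-like cells and 1733 CPM in alveolar macrophage-like cells in the WT library, and 1743 CPM in alveolar macrophage-like cells in the GFI1 KO library. The level in the unnamed WT cluster led by Mmp12 was 2465 CPM. cDC2-like cells held 656 CPM and mature dendritic cell-like cells 468 CPM in the WT library. Monocyte-like cells held 50.7 CPM (42.9 to 59.5) in the WT library and 6.17 CPM (5.48 to 6.93) in the GFI1 KO library. In the WT library T cell-like cells held 17.1 CPM and B cell-like cells without the doublet-rich cluster 14.2 CPM, both under the monocyte level. In the GFI1 KO library they held 4.68 and 8.21 CPM, on either side of it.

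**Figure D2:**
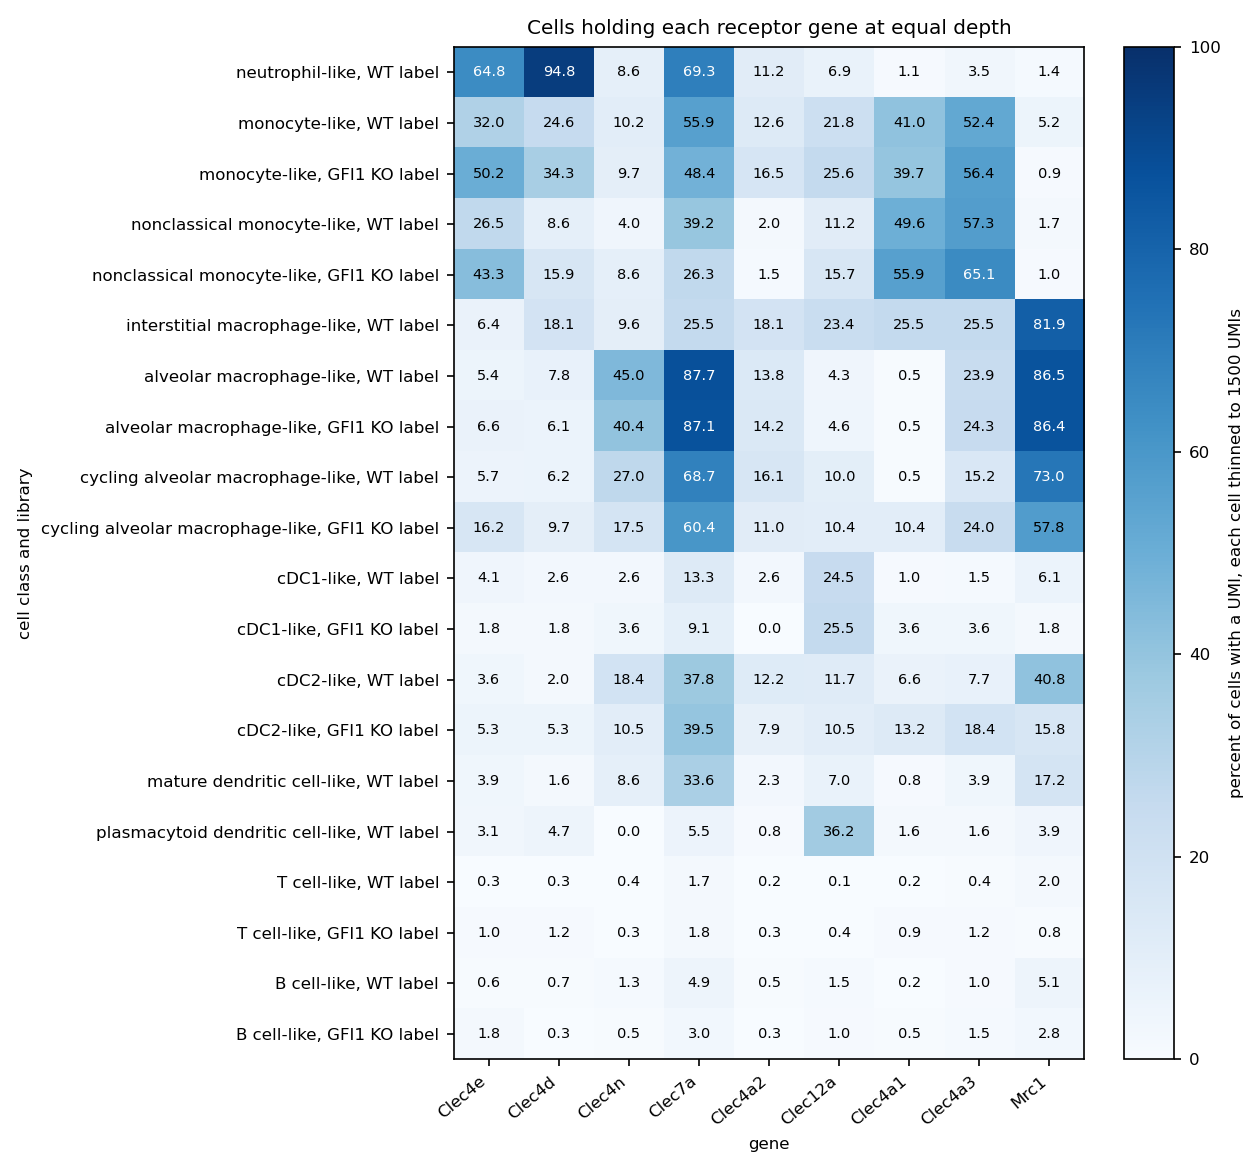
Percent of cells with at least 1 UMI of each receptor gene after each cell was thinned to 1500 UMIs, by class and library, for classes with at least 20 cells. Columns are genes and darker squares are higher percentages. Clec4d was seen in 94.8% of WT neutrophil-like cells and Mrc1 in 86.5% and 86.4% of alveolar macrophage-like cells, while T cell-like cells stayed at or under 2.03% for each gene.

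At equal depth most myeloid cells held several of the receptors. The median was 3 of the 9 genes in WT neutrophil-like cells, in alveolar macrophage-like cells of both libraries and in monocyte-like cells labelled GFI1 KO, and 2 in monocyte-like cells labelled WT. At least 3 receptors were seen in 57.9% of monocyte-like cells labelled GFI1 KO and 49.5% labelled WT, against 0.259% and 0.162% of T cell-like cells. In cDC1-like cells the median was 0, and 65.5% and 58.7% of cells held none.

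Summed over whole libraries, 6 genes were higher in the GFI1 KO library. Clec4a1 was at 194 against 27.4 CPM, 7.08-fold, Clec4e 3.85-fold, Clec12a 3.64-fold, Clec4a3 3.15-fold, Clec4a2 1.78-fold and Clec4d 1.24-fold. Clec7a was at 0.902, Clec4n at 0.781 and Mrc1 at 0.705 of its WT level. In such sums a change in the number of cells and a change in RNA per cell cannot be told apart, so the levels were split by class. Monocyte-like cells took 49.4% of all UMIs in the GFI1 KO library and 2.18% in the WT library. They held 85.3% of the Clec4a1 UMIs in the GFI1 KO library and 25.9% in the WT library. The largest part of Clec4d lay in neutrophil-like cells in the WT library, with 55.4% of its UMIs, and in monocyte-like cells in the GFI1 KO library, with 83.9%. For Clec4e these shares were 41.0% and 84.2%.

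When the WT level of each class was weighted by the class shares of the library labelled GFI1 KO, the whole-library level of Clec4a1 became 179 CPM, which is 6.53 times the measured WT level. The measured level was 1.08 times this value. The measured level was 1.00 times the weighted one for Clec4a2, 1.05 times for Clec4d, 1.16 times for Clec12a and 1.19 times for Clec4a3. Clec4e kept the largest remainder, with a weighted level of 193 CPM and a measured level 1.60 times higher. For Mrc1, Clec4n and Clec7a the measured level was 0.953, 0.851 and 0.834 times the weighted one.

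**Figure D3:**
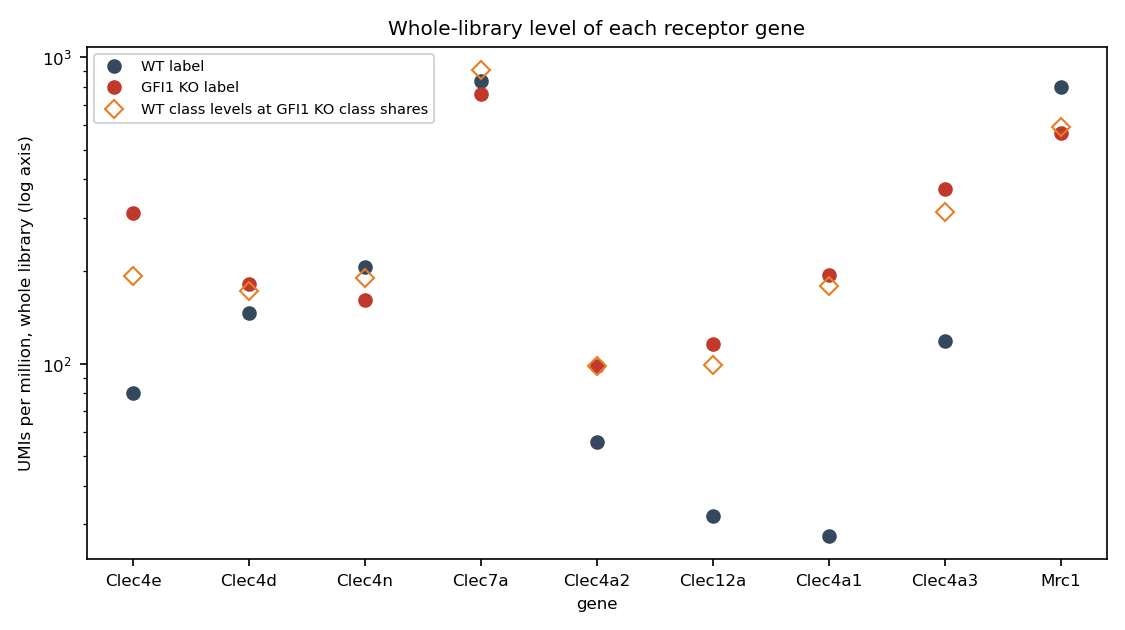
Whole-library level of each receptor gene in UMIs per 1000000 (log axis) in the WT library (dark circles), in the GFI1 KO library (red circles), and as computed from the WT class levels at the class shares of the library labelled GFI1 KO (open diamonds). For Clec4a1 the diamond lies at 179 CPM beside the measured 194 CPM, while for Clec4e it lies at 193 CPM under the measured 309 CPM.

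Within classes, all 54 pairs of a member and a compared class had at least 30 UMIs. In 4 pairs the level was at least 2-fold higher in the GFI1 KO library and in 7 at least 2-fold lower. In monocyte-like cells 0 of 9 members were higher and 1 lower by this measure, where 7.97% and 5.61% of 11554 genes were. The counts were 0 and 1 in nonclassical monocyte-like cells (background 1.85% and 1.74% of 8369 genes) and 0 and 0 in alveolar macrophage-like cells (0.452% and 4.01% of 12392 genes). They were 2 and 1 in cycling alveolar macrophage-like cells (3.31% and 3% of 10008 genes), 1 and 2 in cDC1-like cells (1.48% and 6.33% of 8392 genes) and 1 and 2 in cDC2-like cells (4.4% and 7.15% of 7661 genes). The median log2 ratio of the members was 0.04, 0.14, 0.13, 0.11, 0.03 and -0.33 in these classes, beside 0.04, 0.01, -0.01, -0.02, -0.05 and 0.06 over all counted genes.

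**Figure D4:**
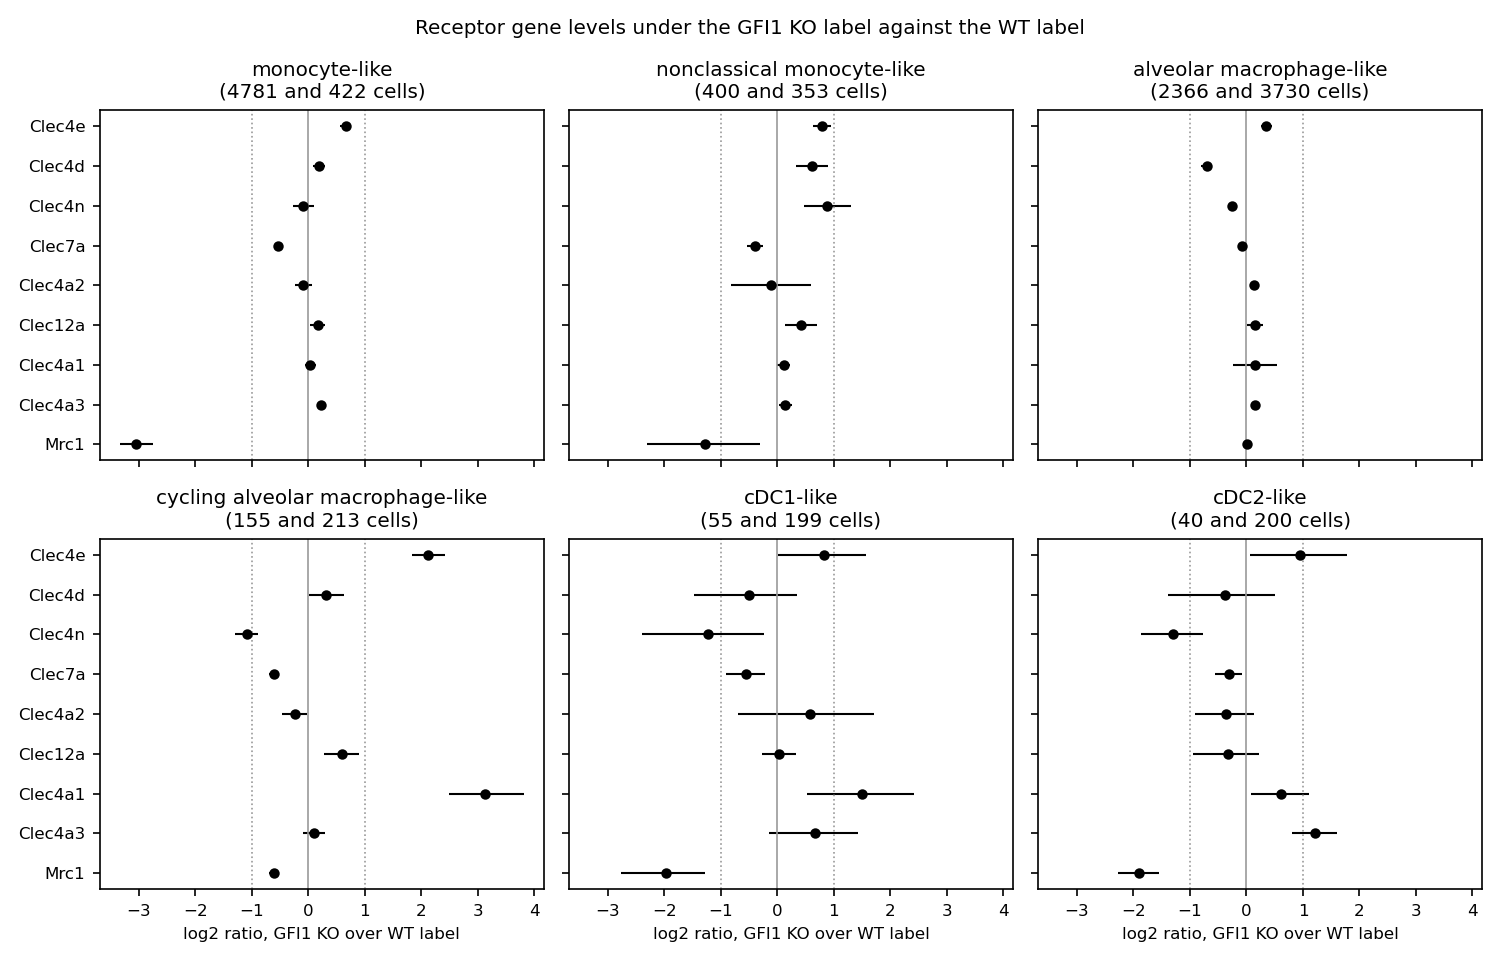
Log2 ratio of the level in the GFI1 KO library to the level in the WT library for each receptor gene in the 6 compared classes, with the cells of each library in the panel titles (GFI1 KO first). Bars are exact 95% conditional binomial intervals for counting error only, and dotted lines mark 2-fold. Clec4e lay right of 0 in monocyte-like and nonclassical monocyte-like cells (0.66 and 0.79), and Clec7a left of 0 (-0.53 and -0.40).

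In monocyte-like cells Clec4e was at 527 CPM in the GFI1 KO library and 333 CPM in the WT library, a ratio of 1.58 (1.49 to 1.69, exact conditional binomial interval for counting error only). At equal depth a Clec4e UMI was held by 50.2% (48.8 to 51.7) of 4769 GFI1 KO cells and 32.0% (27.6 to 36.7) of 422 WT cells, and without thinning 92.1% and 68.2% did. Clec7a was lower, with 483 and 698 CPM and a ratio of 0.693 (0.662 to 0.725). Clec4a3 (1.18, 1.12 to 1.24), Clec4d (1.14, 1.06 to 1.22) and Clec12a (1.13, 1.03 to 1.23) were slightly higher, and the intervals of Clec4a1, Clec4a2 and Clec4n held 1. Mrc1 had a ratio of 0.122 (0.0995 to 0.149).

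The monocyte-like cells of the libraries were not alike in other genes. The MHC-II gene H2-Aa was at 325 CPM in the GFI1 KO library and 1546 CPM in the WT library, the lectin Cd209a at 4.80 and 47.7 CPM, C1qa at 4.16 and 17.2 CPM, Ly6c2 at 749 and 1337 CPM, and the granule gene Lcn2 at 527 and 4.40 CPM. The part of these differences in the ratios was not tested, but the ratios were taken within the 4 clusters of the class. Clec7a was lower in the GFI1 KO library in all 4, with ratios of 0.697 in the cluster led by Ly6a2 and Lcn2, 0.717 in that led by Plac8, 0.550 in that led by Saa3 and Ms4a4a, and 0.837 in that led by the interferon-induced genes Ifit3 and Rsad2. Clec4e had ratios of 1.51, 2.03, 0.975 (0.875 to 1.09) and 2.01 in the same order. In the cluster led by Saa3 its level was 828 CPM in the GFI1 KO library and 849 CPM (57 cells) in the WT library, the highest among the monocyte clusters. Mrc1 had ratios between 0.0873 and 0.298. A Mrc1 UMI was held by 0.881% of thinned monocyte-like cells in the GFI1 KO library, where 0.776% of T cell-like and 2.78% of B cell-like cells held one. In the WT library 5.21% of monocyte-like cells did, against 2.03% and 5.07%, and these B cell-like shares include the doublet-rich cluster. The part of free RNA and of doublets in this difference was not tested.

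Nonclassical monocyte-like cells formed 1 cluster, with the defining genes Treml4 at 600.0 and 603 CPM and Cd300e at 527 and 427 CPM. Clec4e was higher in the GFI1 KO library, at 441 against 254 CPM, a ratio of 1.73 (1.56 to 1.93), and 43.3% against 26.5% of thinned cells held it. Clec4n (66.9 against 36.4 CPM, 1.84, 1.38 to 2.46), Clec4d (126 against 82.5 CPM, 1.53, 1.26 to 1.86) and Clec12a (116 against 87.0 CPM, 1.34, 1.10 to 1.63) were higher too. The Clec4n value depended on the setting, with a log2 ratio of 0.88 that became 0.09 at clustering resolution 0.5, 0.23 at resolution 1.2 and 0.25 under a stricter filter on cells. In these settings the class also grew, from 400 GFI1 KO and 353 WT cells to 690 and 480, 538 and 418, and 533 and 414. Subtraction of the T and B cell-like level took the Clec4n log2 ratio to 3.40, and to 1.00 when the doublet-rich B cluster was left out of that level. Clec7a was lower, at 329 against 435 CPM, a ratio of 0.756 (0.686 to 0.834). Clec4a1 (1.08) and Clec4a3 (1.11), the leading genes of this class, had ratios near 1. Mrc1 rested on 14 and 28 UMIs.

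Alveolar macrophage-like cells gave the narrowest intervals. Mrc1 was at 1743 and 1733 CPM, a ratio of 1.01 (0.994 to 1.02), and Clec7a at 1576 and 1674 CPM, a ratio of 0.942 (0.930 to 0.953). Clec4n was lower in the GFI1 KO library, at 383 against 458 CPM (0.836, 0.816 to 0.856), and Clec4d at 41.5 against 67.5 CPM (0.615, 0.574 to 0.659). Clec4e was higher, at 52.4 against 41.0 CPM (1.28, 1.19 to 1.37). Among the 4 largest clusters of the class, the Clec4d ratio was 0.545 in that led by Flvcr2, 0.622 in that led by Ereg and Tnf and 0.446 in that led by Mcm2, but 1.12 (0.874 to 1.43) in that led by Cadm4 and Mt2. Clec4e had ratios of 1.06 (0.943 to 1.19), 1.17 (1.06 to 1.30), 1.31 (0.916 to 1.87) and 2.28 (1.78 to 2.94) in the same order. The last rested on 155 and 113 UMIs. The library labelled WT held more neutrophils, the cells richest in Clec4d, and its neutrophil gene S100a8 was at 26.8 CPM in alveolar macrophage-like cells against 18.1 CPM in the GFI1 KO library. In T and B cell-like cells Clec4d was at 8.95 CPM in the GFI1 KO library and 10.7 CPM in the WT library. Without the doublet-rich B cluster it was at 7.4 and 3.7 CPM, higher in the GFI1 KO library. The part of free RNA in the Clec4d ratio was not tested beyond the subtraction of T and B cell-like levels, which gave a log2 ratio of -0.80 in place of -0.70, and of -0.90 without the doublet-rich B cluster. With cells thinned to 1500 UMIs the log2 ratio was -0.35. For Clec4e the same subtractions took the log2 ratio from 0.35 to 0.12 and 0.05.

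Cycling alveolar macrophage-like cells showed the highest ratios, 8.74 (5.66 to 14.0) for Clec4a1, from 59.3 against 6.79 CPM, and 4.36 (3.56 to 5.36) for Clec4e, from 156.5 against 35.9 CPM. Clec4n was at 106 against 224 CPM, a ratio of 0.471 (0.409 to 0.541). The cluster was defined by cell cycle genes and held other cycling cells as well. Under the GFI1 KO label it held Ly6c2 at 456 CPM, Vcan at 211 CPM, Elane at 131 CPM and Prtn3 at 260 CPM, against 1.41, 1.41, 0 and 0 CPM in the WT library. Under the WT label it held more of the dendritic cell genes Cd209a (114 against 1.53 CPM) and H2-Aa (1239 against 179 CPM). Of its cells, 51 of 155 (32.9%) and 9 of 213 (4.23%) held a UMI of Ly6c2, Vcan, Elane or Prtn3. Without those cells, an alternative added after seeing the data, Clec4a1 was at 8.22 against 7.18 CPM, a ratio of 1.15 (0.536 to 2.34). Clec4e then had a ratio of 0.653 (0.442 to 0.947), Mrc1 of 0.973 (0.919 to 1.03) and Clec4n of 0.636 (0.545 to 0.741), while Clec4d had a ratio of 0.465 (0.313 to 0.675) in place of 1.25 (1.01 to 1.55) over all cells of the class. Cells with dendritic cell genes, more frequent under the WT label by RNA level, were not left out by this rule, so the mixes compared may still differ.

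**Figure D5:**
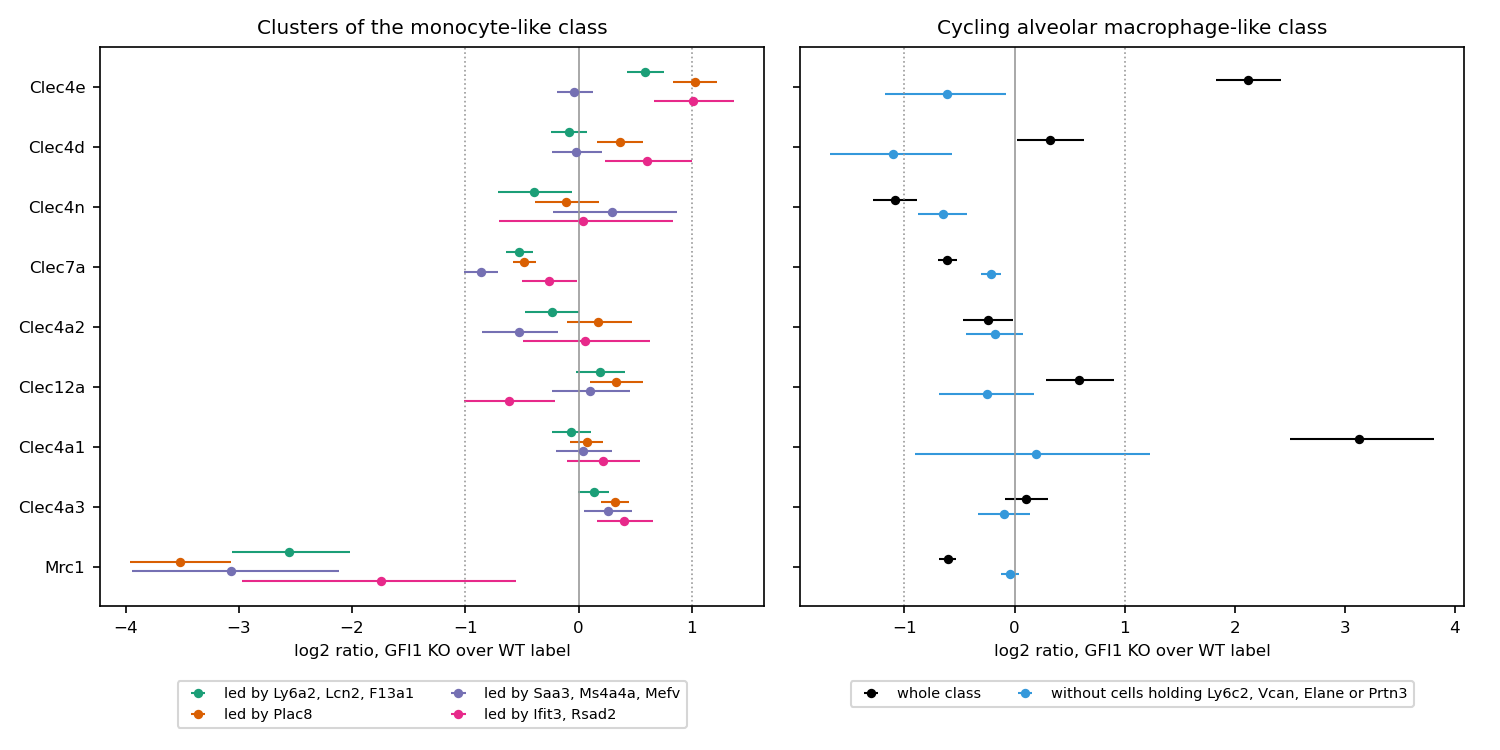
Log2 ratio of GFI1 KO to WT level for each receptor gene in the 4 clusters of the monocyte-like class (left) and in the cycling alveolar macrophage-like class with and without the cells that held a monocyte or granule gene UMI (right), with exact 95% conditional binomial intervals and dotted lines at 2-fold. Clec7a lay left of 0 in all 4 monocyte clusters. The Clec4a1 and Clec4e ratios of the cycling class, 3.13 and 2.12, became 0.20 and -0.61.

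The dendritic cell classes rested on few cells in the GFI1 KO library. Cells called doublets made up 0% of cDC1-like cells labelled GFI1 KO and 6.03% of those labelled WT. For cDC2-like cells these shares were 0% and 5%. The cDC2-like class joined several clusters that the libraries filled unevenly. The cluster led by Klri1 held 24 GFI1 KO and 32 WT cells, and that led by Cd209a and Mgl2 held 6 and 106. The part of this make-up in the ratios of the class was not tested. In cDC2-like cells, which present antigen to CD4 T cells, Mrc1 was at 176 CPM (137 to 223) in 40 GFI1 KO cells and 656 CPM (622 to 692) in 200 WT cells, a ratio of 0.268 (0.208 to 0.342). At equal depth 15.8% (6.02 to 31.3) of 38 and 40.8% (33.9 to 48.0) of 196 cells held it. Clec4n had a ratio of 0.407 (0.275 to 0.584), from 81.7 against 201 CPM. Both were further from 1 in some other settings. The Clec4n log2 ratio of -1.30 became -1.93 without cells called doublets and -2.25 with the lectin and signalling genes kept among the variable genes, where that of Mrc1 went from -1.90 to -3.57. With those genes kept the class itself changed, to 87 GFI1 KO and 230 WT cells in place of 40 and 200. Clec4a3 was higher, at 191 against 82.7 CPM (2.32, 1.74 to 3.05), and Clec4a1 at 107 against 70.2 CPM (1.53, 1.06 to 2.16), a log2 ratio of 0.61 that was 1.28 with cells thinned to 1500 UMIs. The monocyte gene Ly6c2 was at 334 CPM in cDC2-like cells labelled GFI1 KO and 41.1 CPM in those labelled WT, and its part was not tested. In cDC1-like cells, which take up dead cells, Mrc1 was at 30.5 against 120 CPM (0.254, 0.146 to 0.414). Clec4n rested on 9 and 94 UMIs (0.428, 0.190 to 0.848) and Clec4a1 on 17 and 27 UMIs (2.81, 1.44 to 5.35). With cells thinned to 1500 UMIs the log2 ratios of Clec4n and Mrc1 in cDC1-like cells went from -1.22 to -0.17 and from -1.98 to -1.25. Without cells called doublets, the Clec4a1 log2 ratio in cDC1-like cells went from 1.49 to 0.34. Clec12a was at 201 and 196 CPM (1.02, 0.826 to 1.26). Mrc1 and Clec4n were at 1733 and 458 CPM in alveolar macrophage-like cells labelled WT. The part of such RNA in the dendritic cell ratios was not tested beyond the repeats without called doublets and with free RNA subtracted.

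Among 26 other lectin receptors, between 8 and 15 reached 30 UMIs in a class. In monocyte-like cells 4 were at least 2-fold higher in the GFI1 KO library and 4 at least 2-fold lower of 14 counted, where 7.97% and 5.61% of all counted genes were. The clearest were Cd209a, a relative of human DC-SIGN (4.80 against 47.7 CPM, a ratio of 0.101), Colec12, a scavenger receptor (0.153), Clec4b1 (0.240) and Cd302 (255 against 126 CPM, 2.02). Cd302 was higher in nonclassical monocyte-like cells as well (178 against 80.4 CPM, 2.21). Lower there were Colec12 (0.254, on 8 and 26 UMIs) and Ly75 (0.276, on 8 and 24 UMIs). In alveolar macrophage-like cells 5 of 15 were lower and 0 higher, where 4.01% and 0.452% of all counted genes were. These included Clec1a, at 10.6 against 44.1 CPM (0.240, 0.211 to 0.272), and Clec12b, Clec14a and Mgl2, which were under 1.5 CPM in both libraries. Clec14a is an endothelial gene, at 664 and 698 CPM in the 108 and 2224 endothelial-like cells. In cycling cells Cd209a (0.0135), Mgl2 (0.0350) and Clec1a (0.232) were lower. Cd209a and Mgl2 were at 1127 and 1439.5 CPM in cDC2-like cells labelled WT. The part of dendritic-like cells in the cycling ratios was not tested. In cDC1-like cells Olr1 (12.5 against 105 CPM, 0.119) was lower on 7 and 262 UMIs, and Colec12 (0.118, 0.00290 to 0.696) on 1 and 38. In cDC2-like cells Ly75 was lower (0.230, 0.0613 to 0.608) on 4 and 93 UMIs, and Clec9a higher (2.67, 1.12 to 5.98) on 10 and 20.

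Of 19 genes for signalling partners of the receptors (adaptors, kinases, phosphatases and transcription factors), all were counted in 5 classes and 18 in cDC1-like cells, and in nonclassical monocyte-like and alveolar macrophage-like cells none of them differed by 2-fold. In monocyte-like cells Card9, the adaptor downstream of Syk, was at 35.0 against 17.2 CPM (2.03, 1.535 to 2.74). It was the only partner of 19 past 2-fold there, where 7.97% of 11554 genes were higher by 2-fold and 5.61% lower. Rel was just short of 2-fold lower, at 447 against 888 CPM (0.503, 0.483 to 0.524). The shares of all counted genes in the other classes are those given above beside the members. In cDC2-like cells Card9 had a ratio of 2.09 (0.851 to 4.69) on 9 and 23 UMIs. In cycling alveolar macrophage-like cells Nfatc2 had a ratio of 0.203 (0.0885 to 0.411) on 9 and 60 UMIs. In the WT library Nfatc2 was at 74.1 CPM in cDC1-like, 75.5 CPM in cDC2-like and 0.955 CPM in alveolar macrophage-like cells. The part of dendritic-like cells of the cycling cluster in this ratio was not tested. In cDC1-like cells Malt1, the protease that works with Card9 and Bcl10, was at 245 against 509 CPM (0.482, 0.401 to 0.575). The median log2 ratio of the partners was -0.19 in monocyte-like, -0.16 in cDC1-like, 0.12 in cycling alveolar macrophage-like and 0.39 in cDC2-like cells, beside 0.04, -0.05, -0.02 and 0.06 over all counted genes. It was -0.02 in alveolar macrophage-like cells and -0.0024 in nonclassical monocyte-like cells, beside -0.01 and 0.01.

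The genes whose levels followed each member most closely over the 16 class and library points were taken from 6763 genes. For Clec4e these were Dhx38 (Pearson r of 0.95), Slc16a3 (0.93) and Rhog (0.92), and for Clec4d they were Csf3r (0.97), Tlr6 (0.91) and Osbpl9 (0.89). Tlr2 and Ccl6 followed Clec4n (0.93 and 0.92, with Mitf at 0.91), and Mcemp1, Ccl6 and Hilpda followed Clec7a (0.92, 0.91 and 0.89). Fcgr3, Gbp7 and Tlr2 followed Clec4a2 (0.86, 0.85 and 0.84), and Rnaset2b, Ptpn18 and Cmtm7 followed Clec12a (0.91, 0.90 and 0.89). For Clec4a1 they were Ms4a4a (0.96), Arhgef10l (0.95) and Pou2f2 (0.95), for Clec4a3 Nupr1 (0.95), Smpdl3a and Casp1 (both 0.92), and for Mrc1 Dab2 (0.96), Myo1e (0.95) and Pdgfc (0.95). Among the members themselves, Clec4n and Clec7a were most alike (0.85), and Clec7a and Clec12a most opposed (-0.89).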

How the data were processed

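Single-cell RNA counts of sorted live lung cells were used, from 1 library per genotype label. The authors deposited raw UMI counts per gene and called cell. The submitters' processing notes name Cell Ranger 9.0.1 and the builds GRCm39 and mm39, and the study's methods describe more samples than were analysed here. The members and gene lists were chosen with earlier results of these data known.

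After the study's own settings, cells needed 500 UMIs, 200 genes and at most 20% mitochondrial UMIs, and 9545 ribosomal, mitochondrial and Gm- genes were left out. Normalization was to 10000 UMIs with a log transform, then z-scores capped at 10. From 2000 variable genes (seurat_v3), 50 components and 15 neighbours, Leiden clusters at resolution 0.8 were made with scanpy 1.11.5, leidenalg 0.10.2, Python 3.11.15 and R 4.3.3. The 9 members, 26 other lectins and 19 signalling genes were withheld from the variable genes. Clusters of myeloid cells were clustered again, and mixed ones once more. A name needed at least 3 markers, and at least 50% of its list, raised 1.5-fold and seen in at least 5% of cells. Clusters with at least 60% of the list of another lineage, or 75% of lists of 2 myeloid families, were called mixed. A myeloid cluster whose leading genes held more markers of another class was left unnamed. The rule was set after the clusters were seen. Cells called doublets by Scrublet were kept, and left out in a repeat.

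Levels are summed UMIs per 1000000 UMIs of the class with exact Poisson intervals, ratios have exact conditional binomial intervals and shares exact Clopper-Pearson intervals. All are at 95% and cover counting error only. Shares used cells thinned to 1500 UMIs. A pair of gene and class was counted with at least 20 cells in each library and 30 UMIs over both, and called at 2-fold. The script was tested on simulated counts. Named genes were all members, Gfi1, up to 4 listed genes a class that were 2-fold apart with an interval leaving out 1, and the 3 genes most correlated with each member among those at 50 CPM or more in some class. Card9, Rel, Camp, Ltf and the other marker genes were named after their values were seen. Results were recomputed under 10 other settings of clustering, filter or scale, with a lower UMI minimum and with a lower fold. A further 3 settings, chosen after seeing the data, changed the cells of the cycling and the monocyte classes and left a B cell-like cluster with over 50% called doublets out of the free RNA level.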

Additional observations from a re-analysis of the deposited data

Results flagged for a closer look

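The members Clec4n and Clec4d stood out because their levels moved in opposite directions in different cell classes, each by at least 1.5-fold with an interval that left out 1. Clec4n was higher in the GFI1 KO library in nonclassical monocyte-like cells (ratio 1.84) and lower in cycling alveolar macrophage-like (0.471), cDC1-like (0.428) and cDC2-like cells (0.407). Clec4d was higher in nonclassical monocyte-like cells (1.53) and lower in alveolar macrophage-like cells (0.615). The Clec4n log2 ratio in nonclassical monocyte-like cells, 0.88, was 0.09 at resolution 0.5, 0.23 at resolution 1.2 and 0.25 under the stricter filter on cells, and that in cDC1-like cells, -1.22, was -0.85 without cells called doublets and -0.17 with cells thinned to 1500 UMIs. The difference between the classes was not tested, since each label has 1 library.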

How the results depend on the processing

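The 10 settings and the 3 chosen after seeing the data gave 577 log2 ratios of the members, of which 469 stayed within the interval of the reported value. In pairs reported at least 2-fold apart 7 values turned in direction, and in the other pairs 40 did. Clec4e in cycling alveolar macrophage-like cells went from 2.12 to -0.47 without cells called doublets, -0.34 at resolution 1.2, -0.27 with the lectin and signalling genes kept among the variable genes and -0.61 without cycling cells that held monocyte genes, and Clec4d there went from 0.32 to -1.57, -0.90, -0.76 and -1.10 in the same order. Mrc1 in nonclassical monocyte-like cells, which rests on few UMIs, went from -1.27 to 0.81 at resolution 0.5, 1.04 at resolution 1.2 and 1.05 under the stricter filter on cells. The class also took in more cells in these settings. It went from 400 GFI1 KO and 353 WT cells to 690 and 480, 538 and 418, and 533 and 414. Clec4e in monocyte-like cells (0.50 to 0.68) and in nonclassical monocyte-like cells (0.70 to 0.90), and Clec7a in the same classes (-0.58 to -0.48 and -0.65 to -0.20), kept their direction in each setting run. After subtraction of free RNA 4 pairs (3 with the doublet-rich B cluster left out) and after thinning 1 pair had no value.

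The count of member and class pairs at least 2-fold apart was 11. It was 2 with each library clustered on its own, where cDC1-like, cDC2-like and cycling alveolar macrophage-like cells were not found in both libraries and 27 pairs had no value, 6 with cells thinned to 1500 UMIs and 23 at 1.5-fold. It lay between 8 and 12 in the other settings. The class with the highest level stayed the same in 17 of 18 member and library pairs with a mean over cells. No paired analysis was possible because each label has 1 library. The 9 neutrophil-like cells and the few dendritic cells labelled GFI1 KO limit what can be read from those classes.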
